A study of Mus musculus with 6 samples.

Results

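Chromatin modifiers and remodelers were described here in kidney cells sorted from mice with and without a floxed *Trf1* gene. The members were chosen by gene symbol alone: histone demethylases (Kdm), SET domain methyltransferases (Kmt2, Setd), deacetylases (Hdac, Sirt), bromodomain proteins (Brd), SWI/SNF subunits (Smarc, Arid), chromodomain helicases (Chd), the PRC2 core (*Ezh1*, *Ezh2*, *Suz12*, *Eed*), DNA methylation enzymes (Dnmt, Tet), chromobox readers (Cbx) and PHD finger proteins (Phf), except *Kdm5c*, *Kdm5d*, *Kdm6a* and pseudogene symbols. The rule found 114 of the 12125 genes listed, and 98 of them reached 10 normalized counts in 3 libraries or more and were tested. All mice, 6 to 8 weeks old at the start, carried the tamoxifen-inducible Col1a2-CreERT2 and a KFP reporter, and all received intraperitoneal tamoxifen 3 times a week for 8 weeks. The study used male and female mice, and the text used here does not state the sex of the mice sequenced. By their labels the groups differed in the *Trf1* locus only, with 3 Trf1+/+ mice, the controls, and 3 Trf1 flox/flox mice, in which Cre driven from the *Col1a2* promoter removes *Trf1* in fibroblasts and other cells that use this promoter. From each mouse 1 library was made from 500 cells sorted on the integrin CD29 and the Katushka fluorescent protein (KFP). The text used here does not state which combination of these markers was sequenced.

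DNA in the nucleus is wrapped around histones, and enzymes that write, erase and read chemical marks on histones and DNA set how accessible a gene is. Trithorax-type enzymes place methyl groups on lysine 4 of histone H3 at active promoters, while Polycomb complex PRC2 methylates lysine 27 and PRC1 reads that mark. Acetylation opens chromatin and is removed by deacetylases, and SWI/SNF, ISWI and CHD remodelers move nucleosomes with the energy of ATP. In the kidney several of these enzymes have been studied in fibroblast activation and fibrosis, among them EZH2, the class I deacetylases and SIRT1.

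The deposited values are normalized counts, that is, reads per gene over a size factor of the library. The libraries held 10263382 to 12248797 reads on the genes listed, and a read was worth 0.689 to 1.09 normalized counts. *Terf1*, which encodes TRF1, had 0.891, 253 and 235 normalized counts in replicates 1 to 3 labelled Trf1+/+ and 110.0, 7.65 and 12.4 in Trf1 flox/flox replicates 1 to 3. The value of Trf1+/+ replicate 1, 1 read, does not match its genotype label, but 34.4% of all tested genes had 3 reads or fewer in that library. Whether this value comes from the label or from sparse reads was not tested. Trf1 flox/flox replicate 1 lay well above the other 2 of its group. *Terf1* did not pass the test between genotypes (limma, log2 fold change -1.04, standard error 2.22, adjusted p = 0.996). The groups are therefore named below as labelled, and all directions are those of the labels. Of 12 fibroblast and stroma markers, 2 were among the genes listed, with *Col1a2* at 0 to 1.78 and *Dcn* at 0 to 97.3, so the labelled cell type was not borne out by its defining markers. All 12 proximal tubule markers were listed, with summed normalized counts of 34819 to 166764 in Trf1+/+ and 44460 to 180612 in Trf1 flox/flox libraries. The 8 markers of the loop and distal tubule summed to 92655 to 159139 and 72698 to 170563, and the 8 of the collecting duct to 595 to 12734 and 1728 to 19021. Of endothelial markers 2 of 8 were listed (8.02 to 297 and 1.72 to 307), of leukocyte markers 4 of 11 (0 to 379 and 61.3 to 476), of podocyte markers 0 of 4, and of erythroid markers 5 of 5 (238 to 10472 and 121 to 52403). The part of these cells in the values of the chromatin genes was not tested, and fewer cells of a type cannot be told apart from less RNA per cell in such libraries.

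Tested members were read unevenly across libraries, at shares near those of all tested genes. In the library labelled Trf1+/+ replicate 1, 36 of the 98 tested members had 3 reads or fewer, in Trf1 flox/flox replicate 2 there were 24, and in each of the other 4 libraries 3 to 7. These are 36.7%, 24.5% and 3.06% to 7.14% of tested members, while over all tested genes the shares were 34.4%, 20.0% and 2.48% to 11.2%. The median normalized count of a tested member was 53.9 in the library labelled Trf1+/+ replicate 1 and 144 to 225 in the other 5. The sparse libraries missed partly different members: 17 had 3 reads or fewer only in the library labelled Trf1+/+ replicate 1, including *Ezh2*, *Kmt2a*, *Kmt2d* and *Sirt1*, and 10 only in Trf1 flox/flox replicate 2, including *Suz12*, *Arid1a* and *Arid2*. Another 13 were at this floor in both, *Dnmt1*, *Kdm1a*, *Tet3* and *Setdb1* among them. Of the 98 tested members 46 (46.9%, against 49.8% of all tested genes) had more than 3 reads in every library. Floors and counting intervals cover counting error only, since cDNA was amplified by PCR and molecules were not tagged.

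**Figure D1:**
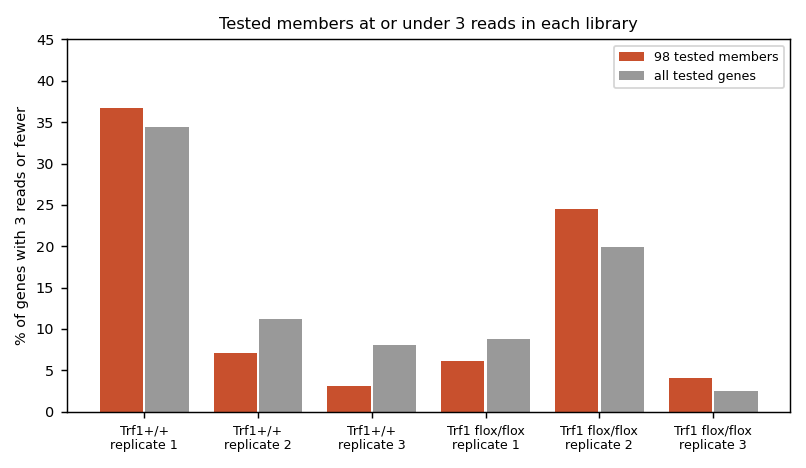
Share of the 98 tested members (red) and of all tested genes (grey) with 3 reads or fewer, in percent, in each of the 6 libraries. The bars of the library labelled Trf1+/+ replicate 1 (36.7% and 34.4%) and of Trf1 flox/flox replicate 2 (24.5% and 20.0%) stand above those of the other 4 libraries.

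Across the 98 tested members the correlation of log2 values between libraries of the same genotype lay between 0.267 and 0.505, and between libraries of different genotype between 0.279 and 0.594. These are Pearson coefficients over genes, which are not independent replicates and share the depth of their library. The closest pair of libraries, Trf1+/+ replicate 3 and Trf1 flox/flox replicate 3, was of different genotype.

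**Figure D2:**
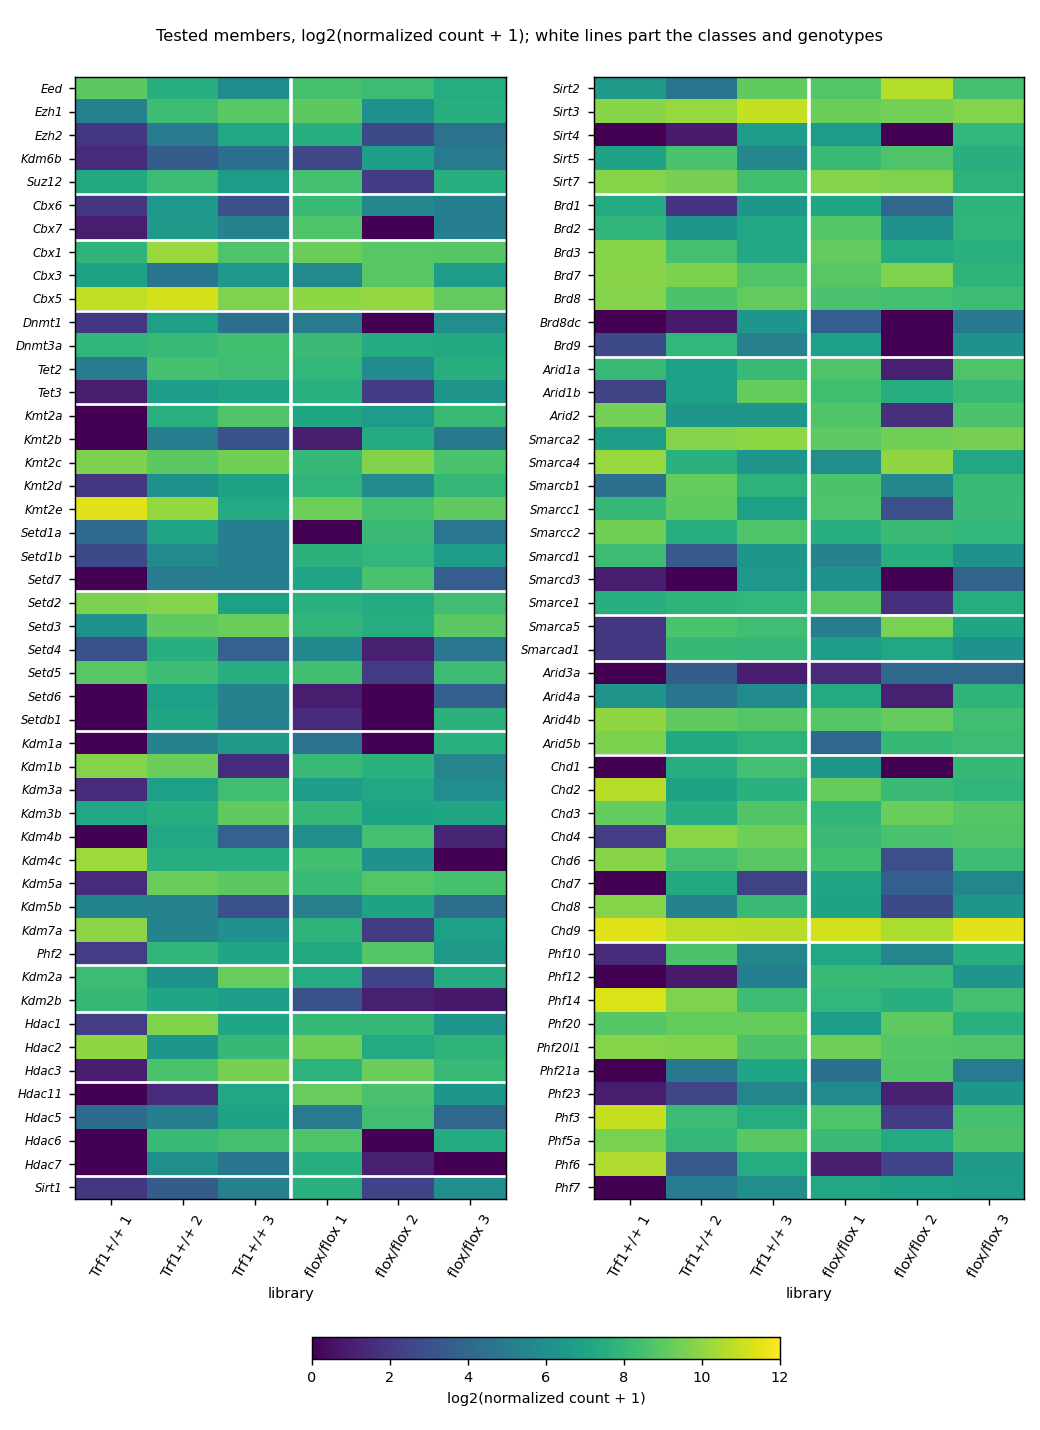
Levels of 96 tested members (rows, ordered by class) in each of the 6 libraries (columns), coloured by log2(normalized count + 1) from 0 (dark) to 12 (yellow). Dark cells gather in the columns of the library labelled Trf1+/+ replicate 1 and of Trf1 flox/flox replicate 2, while *Chd9* (bottom right) is bright in all 6.

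No member passed the test between genotypes. With limma on log2(normalized count + 1), 0 of the 98 tested members had an adjusted p under 0.05, as had 0% of all 9966 genes tested, and edgeR's quasi-likelihood test on the recovered reads also gave 0 members (0% of all genes). DESeq2 gave 0 members and 0.604% of all genes with an adjusted p. At an unadjusted p under 0.05 there were 5 members by limma, or 5.10% beside 4.56% of all genes. Higher in Trf1 flox/flox were 4 members (4.08% beside 3.54%), among them *Phf12*, *Setd1b* and *Hdac11*, and lower was 1 member, *Kdm2b* (1.02% beside 1.01%). By edgeR there were 3 members at that p (3.06% beside 2.21%). In each case the share of members was near that of all genes.

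The libraries of the genotypes did not overlap for 8 tested members, or 8.16% beside 8.68% of all genes. Of the 98 tested, 4 were higher in all 3 Trf1 flox/flox libraries, among them *Phf12*, *Setd1b* and *Phf7* (5.35% of all genes). Lower in all 3 were also 4, *Kdm2b*, *Chd6*, *Sirt3* and *Brd8* (3.33% of all genes). Of the tested members 52 had a positive and 46 a negative log2 fold change (53.1% positive, beside 55.9% of all tested genes), and the median was 0.09 beside 0.20 for all genes. This small positive median did not hold across the tests run. In limma with upper quartile scaling it was 0.34, where the median of all genes was 0.43. In edgeR it was -0.16 with TMM factors and -0.15 with the deposited size factors, where that of all genes was -0.04 and -0.06. Without the library labelled Trf1+/+ replicate 1 it was -0.42, with 37.8% of members positive, and without Trf1 flox/flox replicate 2 it was 0.48, with 65.3% positive. The median SD within a genotype was 2.30 on the log2 scale for tested members and 2.17 for all tested genes. By function 96 tested members fall into 17 classes, and the class medians given below are descriptions that the processing can turn: the median of 13 classes changed sign in at least 1 of the alternatives. That of 4 did not (the filter of at least 10 in all 6 libraries aside), these being *Cbx6* with *Cbx7*, the sirtuins, *Kdm2a* with *Kdm2b*, and the other PHD finger proteins.

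**Figure D3:**
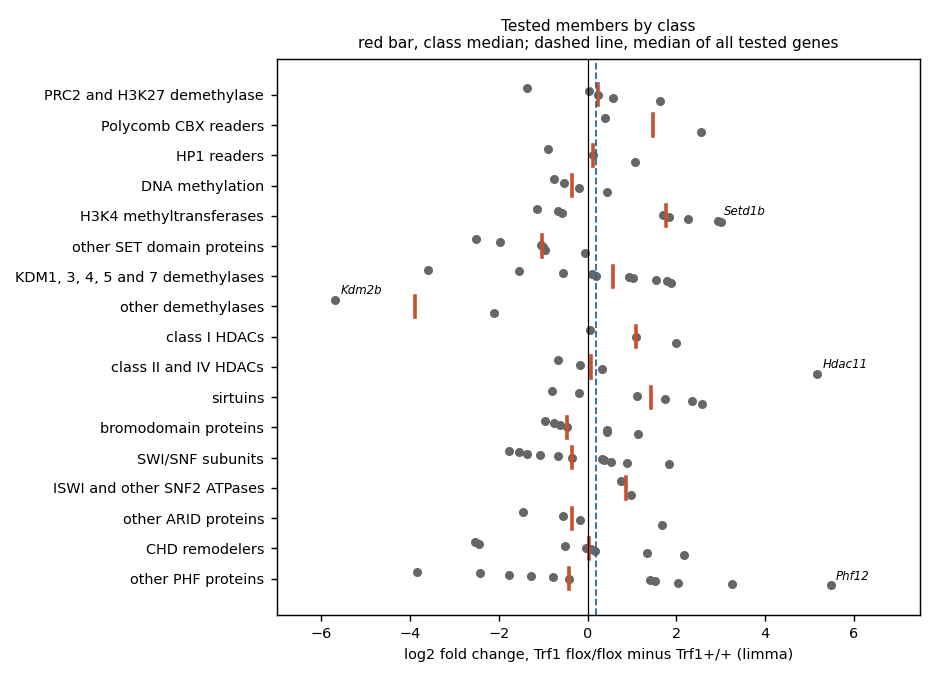
Log2 fold change (limma, Trf1 flox/flox minus Trf1+/+) of 96 tested members (dots), by class, with the class median (red bar) and the median of all tested genes (dashed line, 0.20). The named dots are at an unadjusted p under 0.05, and dots of most classes lie on both sides of 0.

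*Kdm2b* had the smallest p among the members. Its protein, KDM2B, removes methyl groups from lysine 36 of histone H3 and carries a CXXC zinc finger that binds unmethylated CpG dinucleotides, through which it brings a variant PRC1 complex to CpG islands. *Kdm2b* (GRCm38, chromosome 5, 122870665 to 122989823, minus strand) had 260.1, 136 and 104 normalized counts in replicates 1 to 3 labelled Trf1+/+ and 6.87, 1.09 and 0.689 in Trf1 flox/flox replicates 1 to 3. The lowest library labelled Trf1+/+ was 15.2 times the highest Trf1 flox/flox library, with means of 167 ± 82.3 and 2.89 ± 3.46 (SD, n = 3). The log2 fold change was -5.68 (standard error 0.96, adjusted p = 0.160, limma). Over the alternatives run, the adjusted p ran from 0.0639 to 1.000, and the log2 fold change ran from -6.37 to -5.26 when any library was left out. The recovered reads were 562 in Trf1+/+ and 10 in Trf1 flox/flox libraries, a 59.3-fold lower level after scaling (95% exact counting interval 32.0 to 124). This interval pools the reads of each genotype and leaves out the spread between mice. Exons of *Rnf34* and other genes share 8.74% of its exonic bases, and the library kit does not mark strand, so reads from those bases cannot be told apart by strand.

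*Kdm2b* has start sites that lie up to 88157 bases apart on chromosome 5, and transcripts from the inner start are known to encode a shorter protein that keeps the CXXC finger but lacks the demethylase domain. Gene-level values cannot tell these transcripts apart. The stretches before an inner and before an outer start that lie outside annotated exons, from RefSeq (GRCm38.p6, minus strand, 5′ to 3′), are shown to set the CpG dinucleotides (capitals), the letters that the CXXC finger reads, side by side in the promoters of the gene that encodes it.
Kdm2b inner start, chr5:122900356-122900600: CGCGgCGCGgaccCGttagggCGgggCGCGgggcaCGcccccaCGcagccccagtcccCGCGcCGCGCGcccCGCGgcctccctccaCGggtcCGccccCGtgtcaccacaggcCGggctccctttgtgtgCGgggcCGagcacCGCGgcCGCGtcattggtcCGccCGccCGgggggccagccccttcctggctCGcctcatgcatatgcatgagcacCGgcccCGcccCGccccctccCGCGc
Kdm2b outer start, chr5:122988537-122988757: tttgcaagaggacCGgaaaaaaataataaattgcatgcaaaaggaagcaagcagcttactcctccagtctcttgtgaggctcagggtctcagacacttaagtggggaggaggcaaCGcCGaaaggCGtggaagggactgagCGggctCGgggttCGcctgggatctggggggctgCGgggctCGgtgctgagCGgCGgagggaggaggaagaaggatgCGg
The inner stretch holds 36 CpG dinucleotides in 245 bases and a GC box, and the outer stretch 12 in 221 bases and no GC box.

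Whole windows of 250 bases before the start, exons included, were matched for 87 members (117 windows, RefSeq, GRCm38.p6). CpG-rich starts were common among them: the median was 21 CG dinucleotides a window, beside 16 in 9886 windows of all tested genes and 6 in all 32851 windows, and 85.5% of member windows held at least 10, beside 72.0% and 37.8%. The GC box letters GGGCGG, or CCGCCC on the other strand, were found in 69.2% of member windows, 56.8% of windows of tested genes and 32.7% of all windows. An ETS motif, CCGGAAG or CTTCCGG, was in 12%, 14.2% and 6.91%, the CCAAT box, CCAAT or ATTGG, in 31.6%, 35.4% and 33.8%, and the E-box CACGTG in 5.13%, 8.81% and 6.02%. These letters are a description of the windows, and a GC box overlaps CG dinucleotides by its own letters.

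The chromobox readers of Polycomb bind methylated lysine 27 of histone H3 as part of PRC1. *Cbx6* had 2.67, 82 and 6.90 normalized counts in 3 libraries labelled Trf1+/+ against 269.8, 48.1 and 35.8 in Trf1 flox/flox replicates (log2 fold change 2.56, standard error 1.49, adjusted p = 0.996, limma), and these groups overlapped. *Cbx7* had 0.891, 85.3 and 39.4 in libraries labelled Trf1+/+ against 416, 0 and 35.1 in Trf1 flox/flox, with 1 library at or under 1 read in each group.

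Subunits and partners of PRC2, which methylates lysine 27 of histone H3, did not separate the genotypes. The catalytic subunit *Ezh1* had 37.4, 311 and 486 normalized counts in 3 libraries labelled Trf1+/+ against 497, 65.6 and 185 in Trf1 flox/flox replicates (log2 fold change 0.03, standard error 1.34, adjusted p = 1.000, limma). *Ezh2*, its paralog of dividing cells, had 2.67, 29.8 and 145 in libraries labelled Trf1+/+ against 186, 5.46 and 21.4 in Trf1 flox/flox (log2 fold change 0.24, standard error 1.84, adjusted p = 0.996). *Ezh1* was above *Ezh2* in all 6 libraries per kilobase of exon, with means of 35.4 and 9.75 normalized counts per kilobase. The scaffold *Suz12* had 158, 296 and 96.6 in libraries labelled Trf1+/+ against 336, 3.28 and 182 in Trf1 flox/flox (log2 fold change -1.37, standard error 1.78, adjusted p = 0.996). Its sign rests on Trf1 flox/flox replicate 2, the lowest of the 6 libraries, without which the log2 fold change was 0.58. The reader subunit *Eed* had 509, 191 and 56.2 in libraries labelled Trf1+/+ against 361, 296 and 172 in Trf1 flox/flox (log2 fold change 0.58, standard error 1.06, adjusted p = 0.996). *Kdm6b*, a demethylase of the same lysine, had 1.78, 10.8 and 19.7 in libraries labelled Trf1+/+ against 5.16, 104 and 30.3 in Trf1 flox/flox, again with overlap, and 4 of the 5 tested members of this class had a positive log2 fold change (median 0.24).

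The HP1 proteins read methylated lysine 9 of histone H3 in heterochromatin, and *Cbx5* and *Cbx1* were above the floor in every library and among the most abundant members. *Cbx5* (HP1α) had 1876, 2427 and 817 normalized counts in 3 libraries labelled Trf1+/+ against 1005, 1061 and 547 in Trf1 flox/flox replicates, and *Cbx1* (HP1β) had 223, 1145 and 409.9 in libraries labelled Trf1+/+ against 632, 478 and 458 in Trf1 flox/flox. *Cbx3* (HP1γ) was lower, with 124, 24 and 83.8 in libraries labelled Trf1+/+ against 53.3, 464 and 96.5 in Trf1 flox/flox. The groups overlapped for all 3, of which 2 had a positive log2 fold change (median 0.13).

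Of the enzymes of DNA methylation, the de novo methyltransferase *Dnmt3a* was nearly level across the libraries and the maintenance enzyme *Dnmt1* was not. *Dnmt3a* had 237, 283 and 324 normalized counts in 3 libraries labelled Trf1+/+ against 286, 167 and 154 in Trf1 flox/flox replicates (log2 fold change -0.52, standard error 0.76, adjusted p = 0.996, limma), and it kept its negative sign in every alternative run. *Dnmt1* had 2.67, 111 and 19.7 in libraries labelled Trf1+/+ against 29.2, 0 and 57.2 in Trf1 flox/flox (log2 fold change -0.76, standard error 2.0, adjusted p = 0.996). *Tet2*, which oxidizes methylcytosine, had 33, 358 and 315 in libraries labelled Trf1+/+ against 247, 53.5 and 187 in Trf1 flox/flox (log2 fold change -0.20, standard error 1.26, adjusted p = 0.996). Its lowest libraries were again the library labelled Trf1+/+ replicate 1 and Trf1 flox/flox replicate 2. *Tet3* had 0.891, 103 and 127 in libraries labelled Trf1+/+ against 195, 3.28 and 72.4 in Trf1 flox/flox. In this class 1 of 4 tested members had a positive log2 fold change (median -0.36).

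Among the methyltransferases of lysine 4 of histone H3, 5 of 8 tested members had a positive log2 fold change, with a median of 1.77. This median was 0.30 without the library labelled Trf1+/+ replicate 1 and -0.18 without both sparse libraries, with 4 of 8 then positive. With at least 10 normalized counts in all 6 libraries, 2 members were left, both negative (median -0.62). *Setd1b*, a catalytic subunit of a COMPASS complex, was the member of this class whose groups did not overlap. It had 5.34, 52.2 and 33.5 normalized counts in replicates 1 to 3 labelled Trf1+/+ and 207, 245 and 103 in Trf1 flox/flox replicates 1 to 3, and the lowest Trf1 flox/flox value was 1.98 times the highest one labelled Trf1+/+. Its log2 fold change was 2.95 (standard error 1.08, adjusted p = 0.996, limma). *Setd1b* (chromosome 5, 123142193 to 123168629) lies on the same chromosome as *Kdm2b*, 152369 bases further along, and shares no exonic bases with another gene. Its paralog *Setd1a* had 16, 128 and 35.5 in libraries labelled Trf1+/+ against 0, 291 and 24.8 in Trf1 flox/flox, with the lowest and the highest value both in Trf1 flox/flox libraries.

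*Setd7*, which places a single methyl group on this lysine and on other proteins, had 0, 30.7 and 35.5 in libraries labelled Trf1+/+ against 129.7, 376 and 11 in Trf1 flox/flox (log2 fold change 3.0, standard error 1.95, adjusted p = 0.996, limma), and without both sparse libraries its log2 fold change was 0.22. The trithorax homolog *Kmt2a* had 0, 198 and 411 in libraries labelled Trf1+/+ against 135, 98.4 and 269 in Trf1 flox/flox (log2 fold change 1.83, standard error 2.35, adjusted p = 0.996), which was -0.89 without the library labelled Trf1+/+ replicate 1. The enhancer enzyme *Kmt2d* had 2.67, 67.9 and 120.2 in libraries labelled Trf1+/+ against 233, 54.6 and 258 in Trf1 flox/flox (log2 fold change 2.26, standard error 1.56, adjusted p = 0.996), which was 0.71 without the library labelled Trf1+/+ replicate 1. *Kmt2c*, its paralog, was caught evenly, with 793, 508 and 695 in libraries labelled Trf1+/+ against 265, 834 and 382 in Trf1 flox/flox, and was above *Kmt2d* per kilobase in all 6 libraries (means 28.6 and 6.15 normalized counts per kilobase). *Kmt2e*, a family member without known methyltransferase activity, had the highest mean of this class, with 2784, 1111 and 162 in libraries labelled Trf1+/+ against 659, 349 and 535 in Trf1 flox/flox, and its groups overlapped.

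All 6 tested members of the other SET domain group had a negative log2 fold change (median -1.03), but the groups overlapped for each of them and 0 passed the test. The median was 0.17 without Trf1 flox/flox replicate 2, with 4 of 6 then positive. *Setd2*, which trimethylates lysine 36 of histone H3, had 802, 872 and 111 normalized counts in 3 libraries labelled Trf1+/+ against 202, 165 and 319 in Trf1 flox/flox replicates (log2 fold change -0.96, standard error 1.08, adjusted p = 0.996, limma). *Setd3*, an actin histidine methyltransferase, had 66.8, 541 and 625 in libraries labelled Trf1+/+ against 237, 175 and 487 in Trf1 flox/flox. *Setd6* had 0, 108 and 40.4 in libraries labelled Trf1+/+ against 0.859, 0 and 11.7 in Trf1 flox/flox, and *Setdb1*, which methylates lysine 9 of histone H3, had 0, 132 and 37.4 in libraries labelled Trf1+/+ against 1.72, 0 and 207 in Trf1 flox/flox. The last 2 were at 0 in both the library labelled Trf1+/+ replicate 1 and Trf1 flox/flox replicate 2.

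Demethylases of the Kdm1, Kdm3, Kdm4, Kdm5 and Kdm7 families varied more than most classes, with a median SD within a genotype of 2.95 on the log2 scale. Of the 10 tested, 7 had a positive log2 fold change (median 0.57). *Kdm4c*, which acts on lysine 9 of histone H3, had 1218, 179 and 188 normalized counts in 3 libraries labelled Trf1+/+ against 334, 69.9 and 0 in Trf1 flox/flox replicates (log2 fold change -3.59, standard error 2.27, adjusted p = 0.996, limma). The first value and the last one lie far from the other 4, which span 69.9 to 334, and without Trf1 flox/flox replicate 3 the log2 fold change was -1.17. The lysine 4 demethylase *Kdm1a* (LSD1) had 0, 40.6 and 86.7 in libraries labelled Trf1+/+ against 21.5, 0 and 198 in Trf1 flox/flox (log2 fold change 0.10, standard error 2.51, adjusted p = 0.999). *Kdm1b* had 867, 636 and 1.97 in libraries labelled Trf1+/+ against 277, 203 and 42.7 in Trf1 flox/flox, and *Kdm5a* had 1.78, 641 and 495 in libraries labelled Trf1+/+ against 284, 438 and 359.7 in Trf1 flox/flox. *Kdm5a* was thus at 284 to 641 in 5 libraries and at 2 reads in the library labelled Trf1+/+ replicate 1. *Kdm2a*, the paralog of *Kdm2b*, had 294, 71.3 and 590.2 in libraries labelled Trf1+/+ against 170.1, 4.37 and 168 in Trf1 flox/flox, with overlap between the groups.

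The deacetylases remove acetyl groups from histones and many other proteins. The 3 tested class I members had positive log2 fold changes, with a median of 1.08 that was -1.17 at its lowest under the alternatives. *Hdac1* had 3.56, 838 and 137 normalized counts in 3 libraries labelled Trf1+/+ against 264, 252 and 73.7 in Trf1 flox/flox replicates (log2 fold change 1.08, standard error 1.98, adjusted p = 0.996, limma). *Hdac2* had 1029, 77.9 and 266 in libraries labelled Trf1+/+ against 681, 158 and 226 in Trf1 flox/flox (log2 fold change 0.06, standard error 1.23, adjusted p = 0.998), and *Hdac1* was above it per kilobase in 2 of 6 libraries. *Hdac3*, the catalytic subunit of the NCoR and SMRT corepressor complexes, had 0.891, 393 and 734 in libraries labelled Trf1+/+ against 212, 616 and 267 in Trf1 flox/flox, so that 5 of its 6 libraries spanned 212 to 734 and the library labelled Trf1+/+ replicate 1 held 1 read.

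*Hdac11*, the class IV enzyme, which removes fatty acyl groups, had 0, 1.66 and 145 in 3 libraries labelled Trf1+/+ against 591, 376 and 81.3 in Trf1 flox/flox replicates. Its log2 fold change was 5.18 (standard error 2.04, adjusted p = 0.996, limma). The value of Trf1+/+ replicate 3 exceeded that of Trf1 flox/flox replicate 3, so the groups overlapped, and over the alternatives the unadjusted p ran from 0.00211 to 0.234. *Hdac6*, the cytoplasmic tubulin deacetylase of class II, had 0, 274 and 357 in libraries labelled Trf1+/+ against 418, 0 and 166 in Trf1 flox/flox, with a library at 0 in each group.

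Sirtuins are deacylases that consume NAD. Of 6 tested, 4 had a positive log2 fold change (median 1.44, and 0.87 to 1.67 over the alternatives other than the filter of at least 10 in all 6 libraries, which left 4 sirtuins with a median of 0.47). The mitochondrial deacetylase *Sirt3* was the most abundant of them and was lower in all 3 Trf1 flox/flox libraries, with 933, 1135 and 1992 normalized counts in 3 libraries labelled Trf1+/+ against 632, 720.2 and 885 in Trf1 flox/flox replicates. The gap between the nearest libraries of the groups was 48.7 normalized counts, beside a spread of 1059 among libraries labelled Trf1+/+. The nucleolar *Sirt7* had 907, 747 and 333 in libraries labelled Trf1+/+ against 864, 822 and 216 in Trf1 flox/flox. *Sirt2*, which deacetylates tubulin, had 87.3, 24 and 530.1 in libraries labelled Trf1+/+ against 439, 1606 and 351 in Trf1 flox/flox (log2 fold change 2.58, standard error 1.37, adjusted p = 0.996, limma). *Sirt1*, the nuclear enzyme, was low in both groups, with 2.67, 10.8 and 36.5 in libraries labelled Trf1+/+ against 194, 4.37 and 58.6 in Trf1 flox/flox (log2 fold change 1.76, standard error 1.62, adjusted p = 0.996), and its highest value was in Trf1 flox/flox replicate 1.

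Bromodomain proteins bind acetylated histones, and 3 of 7 had a positive log2 fold change (median -0.47). *Brd8*, a subunit of the NuA4/TIP60 acetyltransferase complex, had 875, 390.3 and 546 normalized counts in libraries labelled Trf1+/+ against 375, 335 and 312 in Trf1 flox/flox, and was lower in all 3 Trf1 flox/flox libraries by a gap of 14.8 normalized counts between the nearest libraries. *Brd7*, of the PBAF complex, had 934, 787 and 433 in libraries labelled Trf1+/+ against 473, 808 and 226 in Trf1 flox/flox. The BET genes *Brd2* with 239.6, 78.7 and 143 in libraries labelled Trf1+/+ against 444, 65.6 and 227 in Trf1 flox/flox and *Brd3* with 904, 335 and 149 in libraries labelled Trf1+/+ against 548, 158 and 196 in Trf1 flox/flox, were above the floor in every library.

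SWI/SNF complexes slide and evict nucleosomes and are built around the ATPase SMARCA4 (BRG1) or SMARCA2 (BRM). Of 11 tested subunits, 5 had a positive and 6 a negative log2 fold change (median -0.34). *Smarca4* had 1144, 202 and 76.9 normalized counts in 3 libraries labelled Trf1+/+ against 60.1, 1014 and 142 in Trf1 flox/flox replicates (log2 fold change -0.34, standard error 1.51, adjusted p = 0.996, limma). *Smarca2* had 103, 878 and 993 in libraries labelled Trf1+/+ against 523, 691 and 752 in Trf1 flox/flox (log2 fold change 0.53, standard error 1.12, adjusted p = 0.996). The library labelled Trf1+/+ replicate 1 and Trf1 flox/flox replicate 2 were the only ones in which *Smarca4* was above *Smarca2* per kilobase, at 176.6 against 7.24 and 156.6 against 48.4 normalized counts per kilobase. In the other 4, *Smarca2* was above, with 36.7 to 69.6 against 9.29 to 31.2.

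*Arid1a*, the DNA-binding subunit of the BAF form, had 284, 107 and 281 in libraries labelled Trf1+/+ against 407, 1.09 and 409 in Trf1 flox/flox (log2 fold change -1.54, standard error 2.20, adjusted p = 0.996, limma). Trf1 flox/flox replicate 2 held 1 read of it, and without that library the log2 fold change was 0.99. *Arid2* and *Smarce1* had the same lowest library, with 2 reads each there. The core subunit *Smarcb1* had 19.6, 572 and 217 in libraries labelled Trf1+/+ against 386, 45.9 and 272 in Trf1 flox/flox, with the lowest value of each group in its sparse library. Of the related ATPases, *Smarca5*, the motor of ISWI, had 2.67, 383 and 320.2 in libraries labelled Trf1+/+ against 32.7, 764 and 135 in Trf1 flox/flox, and *Smarcad1* had 2.67, 259 and 250.3 in libraries labelled Trf1+/+ against 107, 146 and 71 in Trf1 flox/flox. Among the other ARID proteins, *Arid4b* of the Sin3 complex had 1026, 541 and 462 in libraries labelled Trf1+/+ against 454, 568 and 321 in Trf1 flox/flox, and *Arid5b* had 804, 154 and 215 in libraries labelled Trf1+/+ against 15.5, 262 and 298 in Trf1 flox/flox, all with overlap.

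The CHD remodelers held both the most abundant member by normalized counts and members at the floor. *Chd9* had 2767, 1807 and 1681 normalized counts in 3 libraries labelled Trf1+/+ against 2327, 1485 and 2864 in Trf1 flox/flox replicates, the smallest coefficient of variation of the tested members (0.271), followed by *Dnmt3a* (0.285), *Phf20l1* (0.360), *Kmt2c* (0.398) and *Chd3* (0.427). *Chd4*, the ATPase of the NuRD complex, had 3.56, 973 and 650.3 in libraries labelled Trf1+/+ against 285, 377 and 427 in Trf1 flox/flox (log2 fold change 1.33, standard error 2.14, adjusted p = 0.996, limma), and was at 4 reads in the library labelled Trf1+/+ replicate 1. *Chd3*, its paralog in NuRD, had 567, 177 and 434 in libraries labelled Trf1+/+ against 228, 608 and 449 in Trf1 flox/flox.

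*Chd6* was lower in all 3 Trf1 flox/flox libraries, with 919, 339 and 481 in libraries labelled Trf1+/+ against 333, 6.56 and 311 in Trf1 flox/flox (log2 fold change -2.53, standard error 1.66, adjusted p = 0.996, limma). The nearest libraries of the groups differed by 6.36 normalized counts, and without both sparse libraries the log2 fold change was -0.33. *Chd8*, which binds β-catenin, had 899, 38.9 and 285 in libraries labelled Trf1+/+ against 123, 5.46 and 79.9 in Trf1 flox/flox (log2 fold change -2.44, standard error 1.67, adjusted p = 0.996), which was -0.09 without both sparse libraries. *Chd2* had 1682, 122 and 203 in libraries labelled Trf1+/+ against 574, 285 and 240.5 in Trf1 flox/flox. Of the 8 tested CHD genes, 4 had a positive log2 fold change (median 0.03).

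PHD finger proteins outside these classes spread widest, from -3.85 to 5.48 on the log2 fold change scale, with 5 of 11 positive (median -0.41). *Phf12*, a subunit of Sin3-type deacetylase complexes, had 0, 0.829 and 35.5 normalized counts in replicates 1 to 3 labelled Trf1+/+ and 281, 269 and 76.5 in Trf1 flox/flox replicates 1 to 3. The lowest Trf1 flox/flox library was 2.16 times the highest one labelled Trf1+/+, and replicates 1 and 2 with that label held 0 and 1 read. Its log2 fold change was 5.48 (standard error 1.56, adjusted p = 0.653, limma). *Phf12*, like *Kdm2b*, was named for a small p, and the stretch before its start outside annotated exons is shown (plus strand, RefSeq, GRCm38.p6). It holds 29 CpG dinucleotides (capitals) in 188 bases. Such starts were common, as 85.5% of whole member windows held at least 10. A relation between CpG dinucleotides and fold change was not tested.
Phf12, chr11:77982566-77982753: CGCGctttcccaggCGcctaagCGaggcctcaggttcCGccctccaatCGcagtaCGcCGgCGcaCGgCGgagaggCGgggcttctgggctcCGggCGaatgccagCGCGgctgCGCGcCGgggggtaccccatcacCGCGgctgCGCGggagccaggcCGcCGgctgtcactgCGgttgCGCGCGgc
*Phf7*, best known from male germ cells, had 0, 29.8 and 60.1 in libraries labelled Trf1+/+ against 142, 117 and 97.9 in Trf1 flox/flox (log2 fold change 3.26, standard error 1.65, adjusted p = 0.996). Its 3 Trf1 flox/flox libraries lay above those labelled Trf1+/+, and without the library labelled Trf1+/+ replicate 1, which lists it at 0, the log2 fold change was 1.45. *Phf14* had 2515, 818 and 311 in libraries labelled Trf1+/+ against 243, 187 and 354 in Trf1 flox/flox (log2 fold change -1.77, standard error 1.02, adjusted p = 0.996), and *Phf6*, the gene of Börjeson-Forssman-Lehmann syndrome, had 1499.9, 9.11 and 172 in libraries labelled Trf1+/+ against 0.859, 4.37 and 86.8 in Trf1 flox/flox (log2 fold change -3.85, standard error 2.27, adjusted p = 0.996). For both, the highest of all 6 values was in the library labelled Trf1+/+ replicate 1. *Phf20l1* had 892, 853 and 396 in libraries labelled Trf1+/+ against 655, 451 and 431 in Trf1 flox/flox, with overlap.

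**Figure D4:**
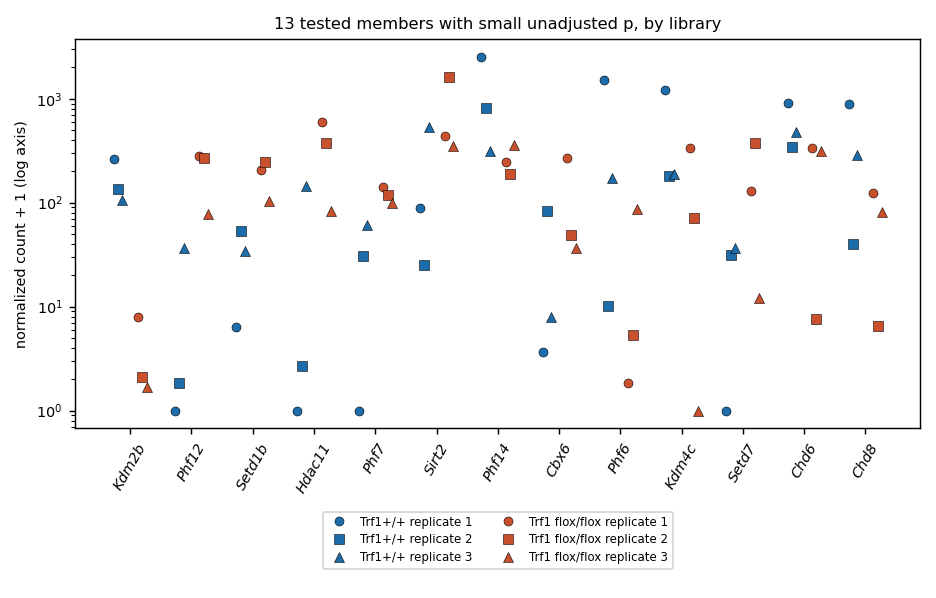
Normalized count + 1 (log axis) of the 13 members named for a small unadjusted limma p, with 1 symbol for each library (blue, Trf1+/+; red, Trf1 flox/flox). The colours are apart for *Kdm2b*, *Phf12*, *Setd1b* and *Phf7*, nearly touch for *Chd6* (nearest normalized counts 339 and 333), and mix for the other 8.

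Per kilobase of exon, the members with the highest mean over the 6 libraries were *Phf5a*, which is also a splicing factor subunit (181 normalized counts per kilobase), *Sirt3* (176), *Cbx5* (143), *Cbx1* (131) and *Sirt7* (126). The median exonic length of tested members was 7777 bases, beside 4374 for all tested genes. Members took 0.202% to 0.357% of the normalized counts of a library. The lowest share was in Trf1 flox/flox replicate 2 and the highest in the library labelled Trf1+/+ replicate 1.

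The 16 members that did not pass the filter were *Arid3b*, *Brd3os*, *Chd1l*, *Hdac4*, *Hdac8*, *Hdac10*, *Kdm4a*, *Kdm8*, *Phf1*, *Phf8*, *Phf13*, *Setdb2*, *Sirt6*, *Smarcal1*, *Smarcd2* and *Tet1*. No member was at 3 reads or fewer in all 6 libraries, and *Brd3os*, *Kdm4a*, *Kdm8*, *Phf13* and *Sirt6* were at or under this floor in 5 of them. Some of the 16 were high in a few libraries only, of either genotype. *Phf1* had 1.78, 173 and 49.3 normalized counts in libraries labelled Trf1+/+ against 3.44, 0 and 7.58 in Trf1 flox/flox. *Kdm8* held 67 reads in Trf1+/+ and 1 in Trf1 flox/flox libraries. *Hdac8*, *Smarcal1* and *Tet1* had their highest value in a Trf1 flox/flox library. *Hdac8*, a class I deacetylase, had 0, 1.66 and 4.93 normalized counts in 3 libraries labelled Trf1+/+ against 0.859, 454 and 33.8 in Trf1 flox/flox replicates, *Smarcal1*, an annealing helicase, had 0, 0 and 0.985 in libraries labelled Trf1+/+ against 72.2, 1.09 and 132 in Trf1 flox/flox, and *Tet1* had 0, 2.49 and 28.6 in libraries labelled Trf1+/+ against 163, 6.56 and 0.689 in Trf1 flox/flox.

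Of 31 members named with their log2 fold change by rule (13 for a small p and the others as catalytic or core members), 17 kept their sign in every alternative run and 14 changed it in at least 1. The 13 named for a small p were among the 17, along with *Dnmt3a*, *Kmt2d*, *Setd2* and *Sirt1*. These 13 were picked by their p in the same libraries, so their kept signs are largely set by that choice and are no independent support. Leaving out 1 library moved the log2 fold change of 27 of the 31 by over 1.5 times in at least 1 case. The exceptions were *Kdm2b*, *Phf12*, *Setd1b* and *Hdac11*, all of them named for a small p. None of the 31 had an adjusted p under 0.05 in any alternative.

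**Figure D5:**
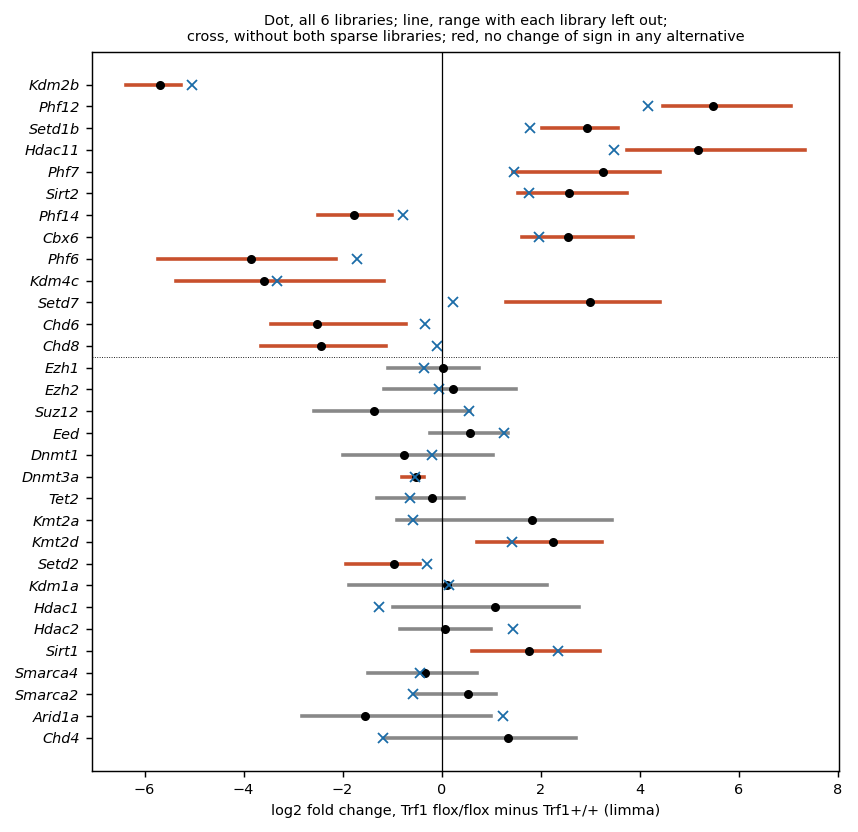
Log2 fold change (limma, Trf1 flox/flox minus Trf1+/+) of the 31 named members with all 6 libraries (dot), its range with each library left out in turn (line) and its value without both sparse libraries (cross). Red lines are the 17 members with no change of sign in any alternative, and above the dotted line are the 13 named for a small p.

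Partners of these complexes and other histone enzymes outside the symbol rule were looked at from a list of 193 genes, of which 162 were tested. Among them 100 had a positive and 62 a negative log2 fold change (median 0.44, and -0.03 in edgeR with TMM factors). None passed limma's adjusted p of 0.05, by edgeR there were 0 as well and by DESeq2 0. At an unadjusted p under 0.05 there were 7 (4.32% beside 4.56% of all genes), 6 higher and 1 lower, and for 11 (6.79% beside 8.68%) the groups did not overlap. *Rbbp5*, a core subunit of COMPASS, had 0, 4.14 and 0 normalized counts in replicates 1 to 3 labelled Trf1+/+ and 252, 166 and 108 in Trf1 flox/flox replicates 1 to 3 (log2 fold change 6.59, standard error 1.0, adjusted p = 0.131, limma). *Phc2*, a PRC1 subunit, had 0.891, 1.66 and 2.96 in libraries labelled Trf1+/+ against 98.8, 67.8 and 91 in Trf1 flox/flox (log2 fold change 4.98, standard error 0.77, adjusted p = 0.137). The groups did not overlap for either gene. *Ino80b*, of the INO80 remodeler, was lower in all 3 Trf1 flox/flox libraries, with 174, 36.5 and 110.4 in libraries labelled Trf1+/+ against 6.01, 9.84 and 4.82 in Trf1 flox/flox (log2 fold change -3.56, standard error 0.92, adjusted p = 0.511). *Yeats2* had 0, 0 and 20.7 in libraries labelled Trf1+/+ against 189.9, 174 and 18.6 in Trf1 flox/flox (log2 fold change 4.96, standard error 1.64, adjusted p = 0.879), and *Cxxc1*, the CpG-binding subunit of COMPASS, had 0, 89.5 and 0 in libraries labelled Trf1+/+ against 371, 262 and 84.1 in Trf1 flox/flox (log2 fold change 5.50, standard error 1.96, adjusted p = 0.962). Both of these groups overlapped.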

How the data were processed

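Libraries were made from 500 sorted kidney cells per mouse by oligo(dT) priming, template switching and PCR, with neither strand nor molecules marked. Cells were sorted on CD29 and KFP, and which combination of these markers was sequenced is not stated in the text used here. Per the study's methods, the authors aligned reads to GRCm38 with TopHat 2.0.10, Bowtie 1.0.0 and SAMtools 0.1.19 and a stranded library setting, although the kit is not stranded, and counted them on GENCODE genes with HTSeq 0.6.1 (strand setting not given in the sources used here), while the submitters' notes name GRCm39 and DESeq2. The authors deposited normalized counts, a signal in which each library was divided by a size factor, and all values (100%) were whole multiples of 1 read (tolerance 1e-06), so reads were recovered. Test: limma 3.58.1 (R 4.3.3) on log2(normalized count + 1), Benjamini-Hochberg over the 9966 genes that reached 10 normalized counts in 3 or more libraries. The added 1 pulls the fold change of a low gene toward 0, while a single library near 0 can enlarge it or set its sign. Alternatives used edgeR 4.0.16 and DESeq2 1.42.0 on recovered reads, other scalings, pseudocounts (0.5, 10), filters and libraries left out. Scripts were tested on simulated data. Replicates are separate mice numbered in accession order. The naming rule took the 15 tested members with the smallest p, 19 catalytic or core members and the 5 other chromatin genes with the smallest p. Counts over tested members cover all 98, while named values, classes and plots of single members leave out 2 members that are not reported here. The members and lists were chosen with earlier results of these data known. Gene positions are from GENCODE vM21 (GRCm38), where 113 of 114 members were matched by symbol. Levels per kilobase divide normalized counts by exonic length.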

Additional observations from a re-analysis of the deposited data

How the results depend on the processing

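No member passed an adjusted p of 0.05 under any alternative run. Counts at an unadjusted p under 0.05 were 5 in the main test, where 4.56% of all genes reached it. They were 3 in edgeR with TMM factors (1.97% of all genes), with the deposited size factors (2.21%) and in limma with an intensity trend (3.13%). With at least 10 normalized counts in all 6 libraries there was 1 of 35 (3.86% of all genes), and with each library left out 3 to 8 (3.23% to 8.32%). Members whose groups did not overlap numbered 2 of 35 under that filter (7.60% of all genes) and 12 to 19 of 98 with each library left out (15.2% to 24.4% of all genes). They numbered 35 of 98 without both sparse libraries, where 29.4% of all genes did not overlap, since fewer libraries leave less room for overlap. The median log2 fold change of members was -0.16 in edgeR with TMM factors, -0.15 in edgeR and DESeq2 with the deposited size factors, -0.34 under the filter in all 6 libraries, -0.11 without both sparse libraries, and -0.42 to 0.48 with each library left out. The share of positive members was then 42.9%, 40.8%, 40.8%, 37.1%, 45.9% and 37.8% to 65.3%. The median of the other chromatin genes was -0.031 with TMM factors and -0.055 in edgeR and DESeq2 with the deposited size factors. The trend and the fit without both sparse libraries were chosen after seeing the data. Where libraries lie at 0, a mean of logs and the log of a mean differ by construction, and other causes of these shifts were not tested.

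Among named members, the following changed sign. In edgeR with TMM factors, with deposited size factors and in DESeq2 the log2 fold changes were -0.19, -0.16 and -0.16 for *Ezh1*, -0.28, -0.28 and -0.28 for *Kmt2a*, -0.85, -0.73 and -0.73 for *Hdac1*, -0.23, -0.37 and -0.37 for *Hdac2*, -0.043, -0.0066 and -0.0066 for *Smarca2*, 0.39, 0.28 and 0.28 for *Arid1a*, and -0.63, -0.58 and -0.58 for *Chd4*. *Ezh1* was -0.0037 with a pseudocount of 10 and *Tet2* 0.058 with upper quartile scaling. Without both sparse libraries the values were -0.36 for *Ezh1*, -0.051 for *Ezh2*, 0.54 for *Suz12*, -0.58 for *Kmt2a*, -1.27 for *Hdac1*, -0.57 for *Smarca2*, 1.23 for *Arid1a* and -1.19 for *Chd4*. With each library left out the ranges were -1.09 to 0.76 for *Ezh1*, -1.16 to 1.5 for *Ezh2*, -2.57 to 0.58 for *Suz12*, -0.24 to 1.34 for *Eed*, -2.0 to 1.04 for *Dnmt1*, -1.30 to 0.46 for *Tet2*, -0.89 to 3.45 for *Kmt2a*, -1.87 to 2.12 for *Kdm1a*, -0.99 to 2.77 for *Hdac1*, -0.85 to 1.0 for *Hdac2*, -1.49 to 0.72 for *Smarca4*, -0.53 to 1.10 for *Smarca2*, -2.81 to 0.99 for *Arid1a* and -1.15 to 2.72 for *Chd4*.

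Sparse libraries limit these values: 36 and 24 tested members had 3 reads or fewer in the library labelled Trf1+/+ replicate 1 and Trf1 flox/flox replicate 2. These 2 libraries held 12248797 and 11285532 reads on the genes listed. Trf1 flox/flox replicate 3, with 10263382 reads, had 4 such members. The cause of the gaps was not tested, and 3 libraries per genotype from 500 cells each could not separate them from genotype. No paired analysis was possible because the labels give the mice no shared replicate numbers.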

Other observations

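*Kdm2b* and *Setd1b* lie on the same stretch of chromosome 5, and the genes around them were looked at after these values were seen. Besides the pair, 11 genes were listed within 100000 bases of either gene or between them, and 8 were tested, 7 with a positive and 1 with a negative log2 fold change (limma), beside 55.9% positive among all tested genes. Among the 7 were *Camkk2* (0.14, standard error 2.08), *Anapc5* (0.14, standard error 1.21) and *Rhof* (0.72, standard error 2.26). The negative 1 was *AI480526* (-0.45, standard error 2.30). *Rnf34*, whose end overlaps *Kdm2b* on the opposite strand, had 22.3, 140.0 and 1.97 normalized counts in replicates 1 to 3 labelled Trf1+/+ and 178, 252 and 136 in Trf1 flox/flox replicates 1 to 3 (log2 fold change 3.11, standard error 1.5, adjusted p = 0.996). *Hpd*, a tyrosine-degrading enzyme, had 183, 7.46 and 311 in libraries labelled Trf1+/+ against 1309, 895 and 358 in Trf1 flox/flox (log2 fold change 3.25, standard error 1.56, adjusted p = 0.996), and its groups did not overlap. *Orai1*, a calcium channel subunit between the pair, had 616, 0 and 0 in libraries labelled Trf1+/+ against 83.3, 419.6 and 19.3 in Trf1 flox/flox, with overlap.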
